A study of Mus musculus with 8 samples.

Results

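The nuclear-encoded genes of the mitochondrial respiratory chain were followed through single nuclei of visceral white adipose tissue from 8 mice. A gene was a member when its symbol in the deposited feature list began with Ndufa, Ndufb, Ndufc, Ndufs or Ndufv and a number, was Sdha, Sdhb, Sdhc or Sdhd, or began with Uqcr, with Atp5, or with Cox4 to Cox8 and the letter a, b or c. Pseudogene symbols ending in -ps were left out, but Cox6c2, which GENCODE M21 lists as a processed pseudogene, and Ndufb1, which it lists as a non-coding RNA, met the rule and were kept. This rule found 84 of 56749 features. By the start of the symbol alone, 37 were counted in complex I, 4 in complex II, 8 in complex III, 17 in complex IV and 18 in complex V. A member whose name does not match its place in the chain is thus counted by its name. Cox7a2l, counted in complex IV, is also on the list of assembly factors used below. Subunits with other names, such as Cox4i1, Cyc1 and Ndufab1, fell outside it and were kept as a list of their own.

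The mice formed 4 groups of 2, and all of them carried mCherry, a red fluorescent protein, on 1 allele of p21. Mice rep144 and rep146 had the genotype p21+/mCherry and ate a standard diet (mCherry SD). Mice rep128 and rep129 had the same genotype on a high-fat diet (mCherry HFD). Mice rep134 and rep136 were p21+/mCherry-Tert (Tert HFD), and mice rep138 and rep140 were p21+/mCherry-TertCi (TertCi HFD), all on the high-fat diet. The series' design text places Tert and TertCi under the p21 promoter, so the transgene is limited to cells in which that promoter is active. Tert is the catalytic subunit of telomerase, and the labels do not spell out what TertCi changes. Age and sex are not given in the sources used here. The design text also names the stromal vascular fraction and p21+/- mice, which goes against the sample labels, and the labels were followed.

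The respiratory chain sits in the inner mitochondrial membrane. Complex I takes electrons from NADH and complex II from succinate, complex III passes them to cytochrome c, and complex IV hands them to oxygen. The proton gradient that complexes I, III and IV build up drives complex V, the ATP synthase. A small set of subunits is encoded by mitochondrial DNA, and all others, including the members here, are transcribed in the nucleus and imported. Their promoters are known targets of NRF1, of ETS factors such as GABP, of YY1 and of the oestrogen-related receptors (ERR), which work with the coactivators encoded by Ppargc1a and Ppargc1b. White adipocytes use the chain for lipid synthesis and fatty acid oxidation and carry far fewer mitochondria than brown adipocytes.

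The windows that held an NRF1 core motif are shown first, since this factor is a known regulator of such genes; most member windows held none of the motifs searched. RefSeq promoters on GRCm38.p6 matched 69 of the 84 member genes, giving 74 windows of 250 bases before the start. The motif GCGCATGCG, searched on both strands, stood in 6 of the 74 member windows (8.11%) and in 1.45% of 32851 windows of all genes. The 6 windows follow 5′ to 3′ on the strand of the gene, with the matched letters of either strand in capitals (where both strands match, the capitals run over both).
Ndufa11, chr17:56717512-56717761, plus strand: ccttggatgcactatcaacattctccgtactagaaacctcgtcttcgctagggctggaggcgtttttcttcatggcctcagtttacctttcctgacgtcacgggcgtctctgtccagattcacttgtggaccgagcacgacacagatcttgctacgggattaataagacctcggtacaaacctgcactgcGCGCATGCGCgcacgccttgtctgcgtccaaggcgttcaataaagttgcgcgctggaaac
Ndufa8, chr2:36049339-36049588, minus strand: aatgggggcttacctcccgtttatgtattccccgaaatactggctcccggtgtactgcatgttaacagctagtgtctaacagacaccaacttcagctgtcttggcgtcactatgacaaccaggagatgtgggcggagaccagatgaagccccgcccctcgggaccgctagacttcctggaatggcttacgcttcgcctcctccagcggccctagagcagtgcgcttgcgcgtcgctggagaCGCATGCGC
Cox6a1, chr5:115348959-115349208, minus strand: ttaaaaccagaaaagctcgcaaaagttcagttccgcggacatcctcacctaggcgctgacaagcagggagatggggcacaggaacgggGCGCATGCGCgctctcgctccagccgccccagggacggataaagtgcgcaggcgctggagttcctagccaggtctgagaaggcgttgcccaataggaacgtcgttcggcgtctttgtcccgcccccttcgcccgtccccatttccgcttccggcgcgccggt
Atp5g2, chr15:102671048-102671297, minus strand: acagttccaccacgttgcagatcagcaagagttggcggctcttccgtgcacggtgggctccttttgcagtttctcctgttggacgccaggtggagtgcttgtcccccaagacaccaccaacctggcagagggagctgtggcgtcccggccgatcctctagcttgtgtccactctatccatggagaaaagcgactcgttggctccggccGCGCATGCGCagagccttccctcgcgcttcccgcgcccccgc
Atp5k, chr5:108434400-108434649, minus strand: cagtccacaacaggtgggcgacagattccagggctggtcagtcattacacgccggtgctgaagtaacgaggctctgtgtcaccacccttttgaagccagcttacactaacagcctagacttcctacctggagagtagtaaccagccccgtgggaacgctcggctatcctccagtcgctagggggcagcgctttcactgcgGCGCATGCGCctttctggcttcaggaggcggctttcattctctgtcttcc
Atp5l, chr9:44920743-44920992, minus strand: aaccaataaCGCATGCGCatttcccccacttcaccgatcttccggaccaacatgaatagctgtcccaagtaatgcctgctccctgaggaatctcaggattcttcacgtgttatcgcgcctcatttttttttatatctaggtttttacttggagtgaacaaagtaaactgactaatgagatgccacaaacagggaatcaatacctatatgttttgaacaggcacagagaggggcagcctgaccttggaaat
The match ended 50 bases before the start in Ndufa11, a membrane-arm subunit of complex I, and directly at the start in Ndufa8, another accessory subunit of that complex. It ended 152 bases before the start in Cox6a1, the widely expressed form of a complex IV subunit. In Atp5g2, a c subunit of the ATP synthase, Atp5k, its e subunit, and Atp5l, its g subunit, the distances were 32, 40 and 232 bases. On both strands, the ETS core CCGGAAG was found in 12 member windows (16.2%, against 6.91% of all windows). The YY1 motif AAGATGGCG and the ERR motif TCAAGGTCA each occurred in 1 member window (1.35%, against 0.606% and 0.387%). These matches describe the windows and show no binding.

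Libraries held 23378488 to 139749876 UMIs (unique molecular identifiers, each counting 1 captured RNA molecule), and 30209 nuclei were kept of 31420 called. A kept nucleus had a median of 1682 to 7133.5 UMIs, depending on the library, and 119 barcodes occurred in more than 1 library. Nuclei were grouped without the member genes and without mitochondrial genes, and the groups were named from marker genes. The adipocyte-like class held 5940 nuclei, progenitor-like 5138, macrophage-like 8344 and endothelial-like 917. Of 29 clusters, 10 carried markers of a second lineage, counted as mixed and were left out of these classes. Among them, clusters 2, 4 and 9, of 2517, 1089 and 404 nuclei, matched adipocytes best. Cluster 8, of 1189 nuclei, matched progenitors best, with 828 and 237 of them from the mCherry HFD mice. Adipoq, an adipocyte hormone, stood at 57.4 to 181 CPM (the usual scaling of UMIs to a common total per class and library) in adipocyte-like nuclei and at 3.0 to 16.0 CPM in macrophage-like nuclei. Ucp1, the brown adipocyte uncoupler, had 1 UMI in all adipocyte-like nuclei. Depth differed between classes and diets. Adipocyte-like nuclei had medians of 3962 and 5952 UMIs in mCherry SD and 13575 and 6165.5 in mCherry HFD. Macrophage-like nuclei had 3087 and 4160, and 6384 and 2632. Summed macrophage markers were not at 0 in adipocyte-like nuclei: they made up 916 to 1813 CPM there, with 0 or 1 of 10 markers without a UMI and Csf1r at 14.8 to 67.1 CPM, against 5944 to 12684 CPM with Csf1r at 146.1 to 297 CPM in macrophage-like nuclei. These markers came to 1813 and 1586 CPM in adipocyte-like nuclei of mCherry SD, 1492 and 1734 in mCherry HFD, 1715 and 1134 in Tert HFD, and 916 and 1082 in TertCi HFD. The endothelial-like class carried 2957 to 6988 CPM of macrophage markers. The part of the other-cell markers in the results below was not tested. Over all barcodes, Tert stood at 2.66 and 2.01 CPM in the libraries labelled Tert HFD, below the 3.27 and 3.58 CPM of mCherry HFD. The mCherry feature had 25 UMIs in all, so neither gene checks the genotype labels, and every direction given for Tert HFD or TertCi HFD rests on the labels alone. Cdkn1a, the gene of p21, stood at 1.57 and 3.19 CPM in mCherry SD, 14.3 and 17.1 in mCherry HFD, 8.48 and 4.28 in Tert HFD, and 6.69 and 4.41 in TertCi HFD.

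Adipocyte-like nuclei were first set against the other 3 classes within the same libraries. Each comparison used edgeR's quasi-likelihood test on summed counts with the library as a block, and a member was called at a Benjamini-Hochberg adjusted p under 0.05 over 12849 genes. Of the 84 members, 75 passed the filter on low counts. Against progenitor-like nuclei, 25 members were higher in adipocyte-like nuclei and 1 was lower, where 33.2% of all genes were called higher and 29.0% lower. Against macrophage-like nuclei 21 were higher and 1 lower, with 36.2% and 31.7% of all genes, and against endothelial-like nuclei 17 were higher and 2 lower, with 32.7% and 26.2%. The share of members called higher was therefore near or under that of all genes, and the share called lower was under it. The median log2 difference over the members was 0.29, 0.19 and 0.23, beside 0.05, 0.06 and 0.09 over all genes. With 1 mouse left out, the member medians ran from 0.27 to 0.37, 0.15 to 0.27 and 0.11 to 0.22. When counts of all mice were scaled by total UMIs alone, the member medians became 0.23, -0.00 and -0.13, with all genes at -0.00, -0.14 and -0.27. The calls then became 23 higher and 1 lower, 10 higher and 7 lower, and 3 higher and 14 lower. The balance of higher and lower members against macrophage-like and endothelial-like nuclei thus changed with the scaling. A change of scaling shifts all genes of a comparison nearly alike, so the medians of members and of all genes moved together. The change is thus not particular to the members. The shares of all genes called under this scaling, or with a mouse left out, are not given here. When the mixed clusters were named, the balance also changed, to 11 higher and 7 lower against macrophage-like nuclei (36.5% and 34% of all genes). Against endothelial-like nuclei it became 6 higher and 12 lower (24.8% and 31.3% of all genes). Without mCherry HFD mouse rep128, 9 were higher and 2 lower against macrophage-like nuclei, and 8 and 2 against endothelial-like nuclei, with 51 members left to test. Without Tert HFD mouse rep134 the endothelial comparison gave 10 higher and 2 lower.

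**Figure D1:**
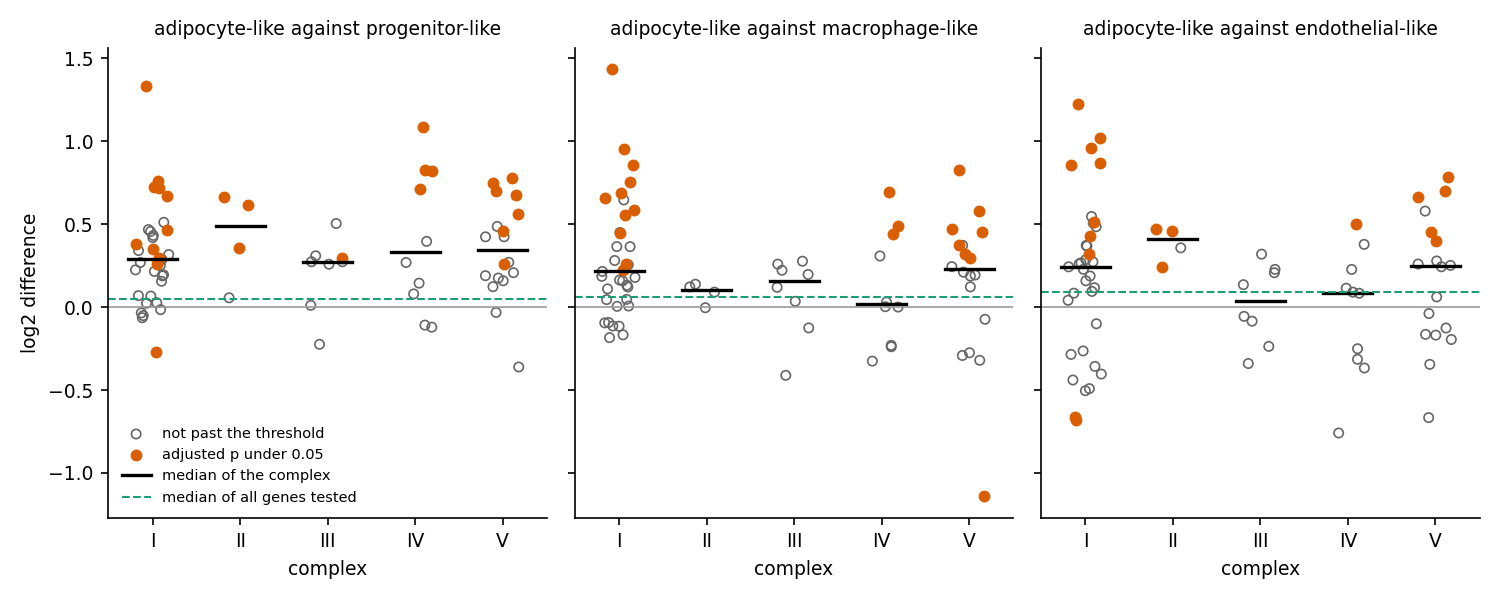
Log2 difference of each tested member between adipocyte-like nuclei and the class named above each panel, by complex (x axis I to V). Filled points had an adjusted p under 0.05, short bars mark the median of each complex and the green dashed line the median of all genes tested; most filled points lie above 0, and Ndufb3 is the highest point of complex I in each panel, at 1.33, 1.44 and 1.23.

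A group of 9 members was called higher against all 3 other classes (18.0% of all genes were), and none was called lower against all 3 (8.65% of all genes). They were Ndufb3, Ndufb4, Ndufs1, Ndufs3 and Ndufv1 of complex I, Cox8a of complex IV, and Atp5a1, Atp5b and Atp5c1 of the ATP synthase. No member of complex II or III was among them. The group depended on the scaling and on the nuclei used. With total UMIs alone only Ndufb3, Ndufs3 and Atp5c1 were higher against all 3 classes (13.4% of all genes), and they were also the only 3 of the 17 still higher than in endothelial-like nuclei. Naming the mixed clusters left the same 3 genes (15.7% of all genes). In nuclei thinned to 1000 UMIs, where 27 members could be tested, Ndufb3, Ndufs3 and Atp5b were left (15.7% of all genes). Of the 9, 5 were left with no filter on low counts (8.16% of all genes). Another 3 runs left 5 each, without mCherry HFD rep128, mCherry HFD rep129 or Tert HFD rep134 (16.3%, 16.3% and 15.3% of all genes).

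In complex I, Ndufb3, an accessory subunit of the membrane arm, had the largest difference from each class. Its level over the 8 libraries ran from 26.8 through a median of 41.4 to 79.9 CPM in adipocyte-like nuclei, against 13, 19.1 and 23.4 CPM in progenitor-like nuclei. Macrophage-like nuclei had 3.1, 17.1 and 22.7 CPM and endothelial-like nuclei 3.5, 17.1 and 32.4 CPM (lowest, median, highest). The adipocyte-like level was the higher one in 8 of 8, 8 of 8 and 7 of 7 libraries, and its lowest library lay above the highest progenitor-like and macrophage-like ones. The log2 differences were 1.33 (SE 0.16, adjusted p = 3.65e-08), 1.44 (SE 0.16, adjusted p = 8.89e-09) and 1.23 (SE 0.20, adjusted p = 8.39e-06), and they stayed past the threshold under every alternative run. Ndufs3, a core subunit next to the quinone site, ran from 34.8 through 53.8 to 69.4 CPM in adipocyte-like nuclei. It stood at 20.9, 31.1 and 49.1 CPM in progenitor-like, 20.5, 25.3 and 44.9 CPM in macrophage-like and 13, 23.8 and 49.3 CPM in endothelial-like nuclei. Its ranges overlapped between classes, but within each library the adipocyte-like level was higher, in 8 of 8, 8 of 8 and 7 of 7. The log2 differences were 0.76, 0.95 and 0.96, with adjusted p = 3.70e-07, 7.55e-09 and 8.58e-07.

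Ndufv1, which binds NADH, was a low gene with 4.0 to 11.1 CPM in adipocyte-like nuclei, and it differed by 0.67, 0.86 and 1.02 on the log2 scale. The last of these fell to 0.68 with an adjusted p above 0.05 when total UMIs alone set the scale. Ndufs1, the iron-sulphur subunit that passes the electrons on, differed by 0.26, 0.22 and 0.43, and by 0.02 and 0.07 in the last 2 under that scaling, past no threshold. Further membrane-arm and accessory subunits passed in some comparisons, such as Ndufs5 (0.76 against macrophage-like nuclei) and Ndufv3 (0.66 against macrophage-like and 0.86 against endothelial-like nuclei). Ndufb4, a membrane-arm subunit higher against each class, differed by 0.47, 0.59 and 0.87, of which the last 2 became 0.39 and 0.52 and did not pass with total UMIs alone. Ndufv3 was then at 0.51 against endothelial-like nuclei and did not pass there either. Ndufs4, an accessory subunit needed for a stable NADH-oxidising module, went the other way against progenitor-like nuclei. It stood at 125 to 178 CPM with a median of 151 in adipocyte-like and at up to 207 CPM with a median of 181 in progenitor-like nuclei, and was the lower one in 8 of 8 libraries, with a log2 difference of -0.27 (SE 0.08, adjusted p = 0.00346). The call was lost with no filter on low counts and in thinned nuclei, with differences of -0.28 and -0.24. Against endothelial-like nuclei the same gene differed by 0.32 and was called higher, but this became -0.06 with total UMIs alone and 0.26 in thinned nuclei, neither past the threshold. Ndufa2 and Ndufa3, both small accessory subunits, were lower than in endothelial-like nuclei (log2 differences -0.68 and -0.66), at medians of 4.9 and 3.7 CPM in adipocyte-like against 9.3 and 6.5 CPM in endothelial-like nuclei.

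**Figure D2:**
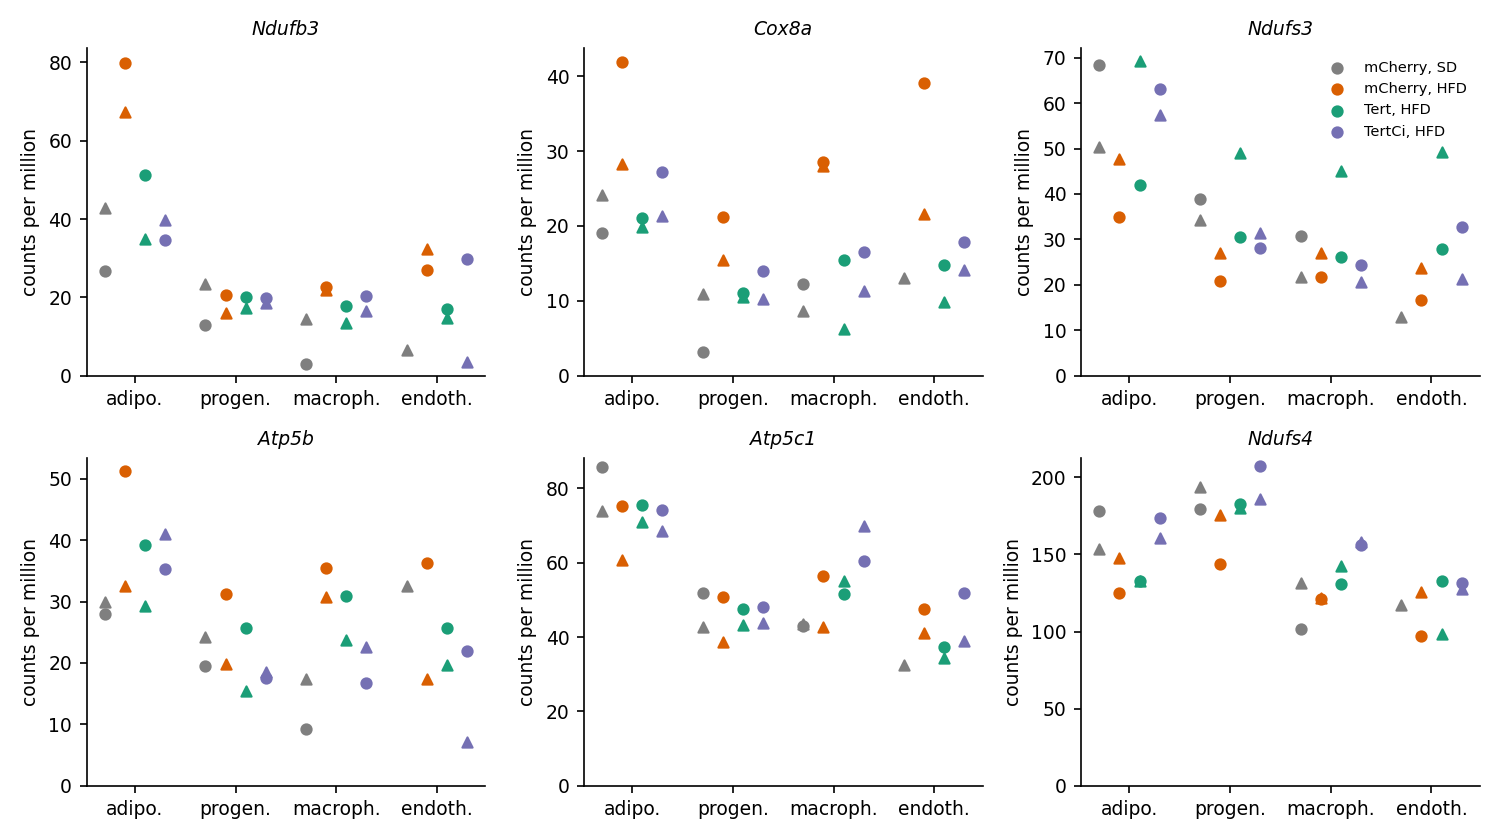
Level of Ndufb3, Cox8a, Ndufs3, Atp5b, Atp5c1 and Ndufs4 in CPM (y axis) by class (x axis), 1 point per library, coloured by group, with circles for the lower-numbered and triangles for the higher-numbered mouse. Adipocyte-like levels of Ndufb3 (26.8 to 79.9 CPM) do not overlap those of progenitor-like nuclei (13 to 23.4 CPM), while Ndufs4 is lower than in progenitor-like nuclei.

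Complex II, which is also an enzyme of the citric acid cycle, had 3 of its 4 subunits higher than in progenitor-like nuclei and 3 of 4 higher than in endothelial-like nuclei, and none differing from macrophage-like nuclei past the threshold. Of all genes, 33.2% were called higher than in progenitor-like and 32.7% higher than in endothelial-like nuclei. With total UMIs alone the 3 progenitor calls were kept and the 3 endothelial calls were not: Sdhb went from 0.47 to 0.11, Sdhc from 0.46 to 0.09 and Sdha from 0.24 to -0.13. Sdhb, the iron-sulphur subunit, had 27.2 to 37.6 CPM in adipocyte-like and 13 to 26.7 CPM in progenitor-like nuclei and was higher in 8 of 8 libraries (log2 difference 0.67, adjusted p = 0.000118). Sdhc and Sdhd, the membrane anchors, differed from progenitor-like nuclei by 0.36 and 0.62. Sdha, the flavoprotein that oxidises succinate, differed least of the 4 from progenitor-like (0.06) and endothelial-like nuclei (0.24). From macrophage-like nuclei it differed most of the 4, by 0.14, not past the threshold. Its medians were 81.6, 79.1, 72.8 and 59.4 CPM in adipocyte-like, progenitor-like, macrophage-like and endothelial-like nuclei. In complex III only Uqcrh, the hinge subunit, passed against progenitor-like nuclei (0.30, adjusted p = 0.0352; 0.24 with total UMIs alone and -0.03 in thinned nuclei, neither past the threshold), and no member passed against the other classes.

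In complex IV, 10 of 17 members could be tested, and 4, 3 and 1 were higher against progenitor-like, macrophage-like and endothelial-like nuclei (33.2%, 36.2% and 32.7% of all genes). Cox8a, the smallest nuclear-encoded subunit, ran from 19.1 through 22.7 to 41.9 CPM in adipocyte-like nuclei (lowest, median, highest). Progenitor-like nuclei had 3.2, 10.9 and 21.2 CPM, macrophage-like nuclei 6.3, 13.9 and 28.6 CPM, and endothelial-like nuclei 9.9, 14.8 and 39.0 CPM, so that the ranges overlapped. It was higher in each library compared, by 1.09 (SE 0.14), 0.69 (SE 0.14) and 0.50 (SE 0.17) on the log2 scale, with adjusted p = 8.57e-08, 5.48e-05 and 0.0122. In thinned nuclei the difference from macrophage-like nuclei was 0.71 and no longer passed, and with total UMIs alone that from endothelial-like nuclei was 0.15 and did not pass. Cox5a, a matrix-side subunit, was higher than in progenitor-like nuclei by 0.83, but was higher than in macrophage-like nuclei in only 4 of 8 libraries. Cox6b1, which faces the intermembrane space, was higher by 0.82 and 0.49 against progenitor-like and macrophage-like nuclei, the latter becoming 0.30 and not passing with total UMIs alone.

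Complex IV has subunits with a widely expressed and a heart and muscle form, and the latter had few UMIs here. Over all libraries Cox6a1 had 587 UMIs in adipocyte-like nuclei and Cox6a2 had 5, Cox7a2 had 490 and Cox7a1 had 5, and Cox8a had 960 and Cox8b had 12. In macrophage-like nuclei the same pairs had 759 and 12, 771 and 24, and 1220 and 4 UMIs. Cox8c and the pseudogene Cox6c2 had no UMI in any of the 4 classes, and Cox7b2 had 1 in adipocyte-like nuclei. With counts this small, no difference between classes in the heart and muscle forms was detectable at this depth.

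In the ATP synthase, 7 of 18 members were higher than in progenitor-like nuclei, 7 higher and 1 lower than in macrophage-like nuclei, and 5 higher than in endothelial-like nuclei. Of all genes, 33.2%, 36.2% and 32.7% were called higher in these comparisons, and 31.7% lower than in macrophage-like nuclei. Both Atp5o loci described below count among the 7 of the progenitor-like comparison. Atp5a1 and Atp5b, the alpha and the catalytic beta subunit, and Atp5c1, the gamma subunit of the turning stalk, were called higher against every class. With total UMIs alone, Atp5a1 differed from macrophage-like and endothelial-like nuclei by 0.10 and 0.05 and Atp5b from endothelial-like nuclei by 0.34, and none of these passed. Atp5b stood at 28.0, 33.9 and 51.2 CPM (lowest, median, highest) in adipocyte-like nuclei against 15.4, 19.7 and 31.2 CPM in progenitor-like nuclei and differed by 0.78, 0.58 and 0.70. Atp5c1 stood at 60.8, 74.0 and 85.6 CPM against 38.7, 45.7 and 51.8 CPM in progenitor-like nuclei, with no overlap, and differed by 0.68, 0.45 and 0.79. The last value was 0.42 and passed with total UMIs alone, but fell to 0.15 with an adjusted p above 0.05 when each nucleus was thinned to 1000 UMIs.

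Atp5o, the stalk subunit OSCP, was listed at 2 overlapping loci, and reads between them cannot be told apart with certainty. In GENCODE M21 the shorter locus spans 6.474 kb and the longer one 242.585 kb, with 1.769 kb in common, and the longer one also contains the genes Cryzl1 and Donson on the same strand. The shorter locus was higher than in macrophage-like nuclei by 0.83 on the log2 scale, and the longer one differed by -1.14 and was lower. Values of the longer locus are given separately below, since a read from a neighbouring gene may count for it.

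Genes around the chain were taken from fixed lists. Of all genes, 33.2%, 36.2% and 32.7% were called higher than in progenitor-like, macrophage-like and endothelial-like nuclei, and 29.0%, 31.7% and 26.2% lower. Assembly factors, which build the complexes, had 20 of 38 tested genes higher and 4 lower than in progenitor-like nuclei, 20 and 2 against macrophage-like, and 20 and 0 against endothelial-like nuclei, with medians of 0.44, 0.49 and 0.53. Cox19, a copper-handling factor of complex IV, differed by 2.58, 2.81 and 3.31, and Atpaf2, an assembly factor of the ATP synthase, by 2.07, 2.21 and 2.57. Of 17 genes of the citric acid cycle and pyruvate dehydrogenase, 15, 15 and 14 were higher, and 0, 2 and 0 lower. Idh3a, a subunit of isocitrate dehydrogenase, led with 1.83, 2.33 and 2.45. Of 14 tested genes of fatty acid oxidation, 12, 11 and 11 were higher and 2, 1 and 1 lower, with medians of 0.80, 1.12 and 1.23 and Hadh, an enzyme of the third step, at 1.67, 2.23 and 2.23. The members' medians of 0.29, 0.19 and 0.23 lay below the medians of these lists. The 2 sides are not on equal terms, since only members and mitochondrial genes were left out of the clustering. Genes of these lists, apart from the member Cox7a2l, could help to define the classes. The 5 tested subunits outside the naming rule were higher in 5, 5 and 2 cases.

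Regulators were higher in 10, 9 and 8 of 16 cases (33.2%, 36.2% and 32.7% of all genes) and lower in 3, 2 and 2 (29.0%, 31.7% and 26.2%). Esrrg, an oestrogen-related receptor, differed by 4.01, 5.53 and 3.82 and Esrra, its relative, by 1.59, 0.78 and 1.55. The coactivator Ppargc1a differed by 1.49, 3.51 and 3.69 and Ppargc1b by 3.22, 0.45 and 1.48. Of the mitochondrially encoded subunits, none of 6 tested was higher, and 1, 1 and 6 were lower (16.7%, 16.7% and 100% of them, beside 29.0%, 31.7% and 26.2% of all genes). Their medians were -0.29, -0.18 and -0.89, with mt-Co1, the catalytic subunit of complex IV, at -0.77, -0.63 and -1.32. These transcripts are not made in the nucleus. Cytoplasmic ribosomal protein genes, whose short and abundant mRNAs served as a marker of RNA from outside the nucleus, had 28, 51 and 44 of 74 tested genes lower and 1, 0 and 0 higher, with medians of -0.32, -0.56 and -0.59. In the uncoupling and carrier list 5 of 7 were higher and 1 lower than in progenitor-like nuclei. Among them, Gatm (0.93) and Ucp2 (0.94) turned to -0.42 and -0.02 when the mixed clusters were given a class as well.

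The next comparison asked how the members differed with the diet. In adipocyte-like nuclei, 11 of 76 tested members were higher in mCherry HFD than in mCherry SD and none was lower, while 12.8% of all genes were called higher and 8.14% lower. The median log2 difference was 0.69 over the members and 0.02 over all genes. In progenitor-like nuclei 2 of 69 were higher and none lower (8.0% and 4.2% of all genes), with a median of 0.51. With mixed clusters named, 12 of 76 members were higher there, beside 12.2% of all genes. In macrophage-like nuclei 12 of 77 were higher and none lower (10.4% and 10.4%), with a median of 0.98. With 1 mouse left out, the medians ran from -0.11 to 0.86 in adipocyte-like, 0.56 to 0.84 in progenitor-like and 0.83 to 1.49 in macrophage-like nuclei. Without the longer Atp5o locus the counts were 10 of 75, 1 of 68 and 11 of 76. Under scaling by total UMIs alone they were 14, 5 and 18, with member medians of 0.97, 0.72 and 1.19 beside all-gene medians of 0.32, 0.23 and 0.27. For the counts with a mouse left out, the shares of all genes called are not given here. The counts moved with mCherry HFD mouse rep128. Without it, 1 member was called in adipocyte-like nuclei and the median was -0.11 (all genes -0.08), and 1 and 4 were called in the other classes, with medians of 0.58 and 0.91. Its partner, mouse rep129, had 64 adipocyte-like nuclei, and without it 6 and 7 members were called in adipocyte-like and macrophage-like nuclei, with medians of 0.78 and 1.06. Leaving out SD mouse rep144 gave 2, 1 and 3 calls and leaving out SD mouse rep146 gave 6, 1 and 1. In progenitor-like nuclei 5 and 4 members were called without Tert HFD rep134 or rep136.

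By complex, the adipocyte-like medians were 0.32 in complex I, with 6 of 36 tested members called, and -0.22 in complex II, with none of 4 called. They were 1.42 in complex III, with 2 of 8 called, 0.94 in complex IV, with 1 of 10, and 0.82 in complex V, with 2 of 18. Among all genes, 12.8% were called higher and 8.14% lower. Complex II was lowest in the other classes too, with progenitor-like nuclei at -0.20 and macrophage-like nuclei at 0.13, and complex III (1.61) was highest in macrophage-like nuclei. The complexes also differed in gene length, with median spans of 8.38, 20.7, 4.91, 2.46 and 7.19 kb over all members of complexes I to V. Diet differences went with gene length, as given below, and its part in the order of the complexes was not tested. Cox7c, a small subunit of complex IV, was called in all 3 classes. In adipocyte-like nuclei it stood at 11.5 and 11.0 CPM in mCherry SD and 48.4 and 39.6 CPM in mCherry HFD, a log2 difference of 2.01 (SE 0.26, adjusted p = 0.00153). Progenitor-like nuclei had 6.1 and 10.1 against 37.1 and 25.9 CPM, and macrophage-like nuclei 0.0 and 12.0 against 61.0 and 56.2 CPM. The differences in these 2 classes were 1.91 (adjusted p = 0.0234) and 2.87 (adjusted p = 0.00244), and the groups did not overlap in any of the 3 classes. The mCherry SD values of Cox7c rested on 4 and 13 UMIs in progenitor-like and on 0 and 8 UMIs in macrophage-like nuclei.

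In complex I of adipocyte-like nuclei, Ndufa13, a subunit of the membrane-arm boundary, stood at 1.1 and 1.7 CPM in mCherry SD and 9.6 and 5.7 CPM in mCherry HFD (log2 difference 2.51, SE 0.52, adjusted p = 0.0104). The value of mouse rep129 rested on 3 UMIs. Ndufb9, a membrane-arm subunit, stood at 3.4 and 5.5 against 14.6 and 28.3 CPM (2.05, SE 0.47, adjusted p = 0.0144). Atp5e, the epsilon subunit of the ATP synthase, stood at 0.8 and 2.4 against 8.6 and 18.9 CPM (2.71, SE 0.59, adjusted p = 0.0122). The mCherry HFD libraries were the higher ones for each of these genes, with no overlap. None of the 3 passed once the estimated free RNA described below was subtracted: Ndufa13 no longer met the filter on low counts, Ndufb9 differed by 1.84 (adjusted p = 0.0804) and Atp5e by 3.37 (adjusted p = 0.244). Ndufb3, the member that stood highest above the other classes, rose less, from 24.4 and 38.4 to 68.8 and 58.5 CPM (1.03, adjusted p = 0.0268). The longer Atp5o locus had the largest difference, with 28.3 and 48.8 against 319 and 624 CPM (3.56, SE 0.51, adjusted p = 0.00225). The shorter Atp5o locus stood at 5.6 and 7.3 against 6.3 and 3.8 CPM and was not called.

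In macrophage-like nuclei, Cox5b of complex IV, Atp5k of the ATP synthase and Ndufa1 of complex I had no UMI in either mCherry SD library, so only a lower bound can be given. Against a floor of 3 counts over that group (3.10 CPM), their mean levels in mCherry HFD were at least 2.75-fold, 2.5-fold and 1.84-fold higher. With these 3 genes at their bound, the median over the macrophage-like members was 0.97. Cox5b stood at 9.8 and 7.3 CPM and Atp5k at 7.6 and 7.9 CPM in the mCherry HFD libraries. Atp5k is 1 of the 6 members whose promoter window held the NRF1 motif. Of the other 5, none was called with diet in any class. Ndufa11 stood at 0.0 and 1.6 against 8.2 and 7.6 CPM in progenitor-like nuclei, without overlap, and missed the threshold there (log2 difference 2.92, SE 0.90, adjusted p = 0.0544). Its differences in adipocyte-like and macrophage-like nuclei were 1.57 and 0.65 (adjusted p = 0.133 and 0.612). Ndufa13 rose in macrophage-like nuclei from 0.0 and 1.5 to 12.7 and 12.1 CPM (log2 difference 3.57, SE 1.12, adjusted p = 0.0409), and Atp5d, the delta subunit of the ATP synthase, from 0.0 and 1.5 to 8.2 and 9.4 CPM (3.07, SE 0.96, adjusted p = 0.0404). The mCherry SD values of these genes rested on 0 or 1 UMI per library. In progenitor-like nuclei the longer Atp5o locus, at 13.7 and 39.6 against 281 and 286 CPM, was the other member called.

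RNA outside the nuclei differed between the groups too. Members without the longer Atp5o locus made up 0.115% and 0.126% of UMIs of adipocyte-like nuclei in mCherry SD, 0.181% and 0.152% in mCherry HFD, 0.135% and 0.103% in Tert HFD and 0.121% and 0.107% in TertCi HFD. In empty droplets of the same libraries they made up 0.130% and 0.169%, then 0.507% and 0.359%, 0.188% and 0.132%, and 0.176% and 0.142%. Both mCherry HFD libraries were thus the highest in nuclei and in empty droplets alike. Ribosomal protein genes made up 2.02% and 1.20% of the empty-droplet UMIs in mCherry HFD and 0.0574% to 0.266% in the other 6 libraries. Some libraries also held nuclei of clusters outside the 4 classes. Epithelial clusters 25 and 26 held 120 and 108 nuclei of mCherry HFD rep128, and epithelial clusters 23 and 24 held 61 and 29 of mCherry SD rep146. The unnamed cluster 28, with Alb among its top genes, held 29 nuclei of rep128. Their part in the free RNA and in the diet difference was not tested. Within nuclei, 68 of 79, 58 of 72 and 58 of 79 tested ribosomal protein genes rose with the diet in adipocyte-like, progenitor-like and macrophage-like nuclei, with medians of 2.41, 2.2 and 2.34. Mitochondrially encoded subunits had medians of 1.44, 1.02 and 1.91, with 2, 0 and 3 of 6 called higher. The free RNA that reached a nucleus was estimated from the other-cell marker with the lowest ratio to empty droplets. In adipocyte-like nuclei it came to 17.6% and 22.8% of the members' level in mCherry SD, 27.8% and 15.9% in mCherry HFD, 11.1% and 27.1% in Tert HFD, and 9.81% and 14.3% in TertCi HFD. For ribosomal protein genes it came to 31.1% and 41.5% in mCherry SD and to 121% and 65.2% in mCherry HFD, the 121% being more than was measured. All members together, the longer Atp5o locus included, made up 0.118% and 0.131% of UMIs in mCherry SD before it was subtracted, 0.219% and 0.226% in mCherry HFD, 0.145% and 0.105% in Tert HFD, and 0.125% and 0.109% in TertCi HFD. With it subtracted they made up 0.115% and 0.122% of the remaining UMIs in mCherry SD, 0.179% and 0.209% in mCherry HFD, 0.140% and 0.0969% in Tert HFD, and 0.121% and 0.105% in TertCi HFD. Under the same subtraction, the members called with diet were 3, 1 and 5, and the medians over the members tested were 0.06, 0.05 and 0.55. The shares and medians of all genes under it are not given here, so these values cannot be set against all genes. The 3 in adipocyte-like nuclei were Ndufb3, Cox7c and the longer Atp5o locus. In macrophage-like nuclei Cox5b, Atp5k, Ndufa13 and Atp5d did not pass and Ndufa1 could not be tested, and in progenitor-like nuclei Cox7c did not pass (1.44, adjusted p = 0.133).

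**Figure D3:**
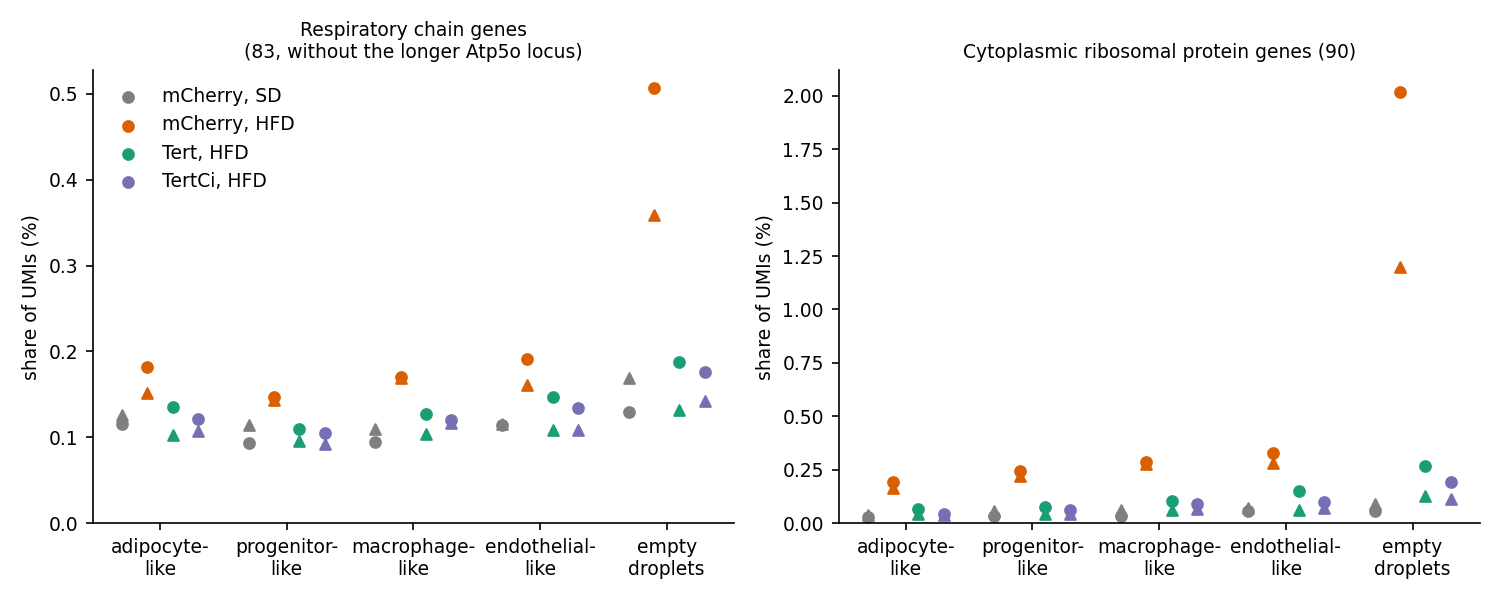
Percent of UMIs taken by 83 members without the longer Atp5o locus (left) and by 90 ribosomal protein genes (right), by class and in empty droplets (x axis), 1 point per mouse (circles for the lower-numbered, triangles for the higher-numbered) and colours for the 4 groups. Both mCherry HFD mice lie above all others in every class and furthest in empty droplets, at 0.507% and 0.359% for the members and 2.02% and 1.20% for the ribosomal protein genes.

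**Figure D4:**
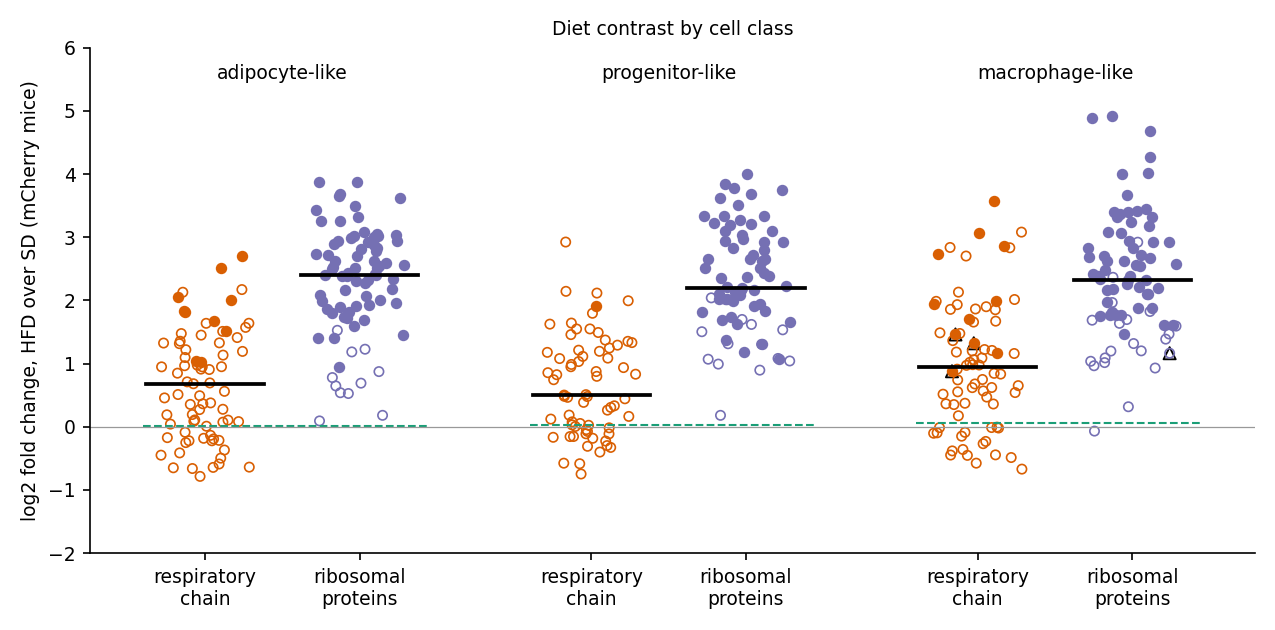
Log2 difference between mCherry HFD and mCherry SD for members without the longer Atp5o locus and for ribosomal protein genes in 3 classes. Filled points had an adjusted p under 0.05, triangles mark genes without a UMI in mCherry SD drawn at their lower bound, black bars are list medians (0.68 for members and 2.41 for ribosomal protein genes in adipocyte-like nuclei) and the green dashed line is the median of all genes.

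The diet difference also went with gene length. Members spanning under 10 kb had medians of 0.97, 0.95 and 1.20 in adipocyte-like, progenitor-like and macrophage-like nuclei, and members of 10 kb or more had -0.22, -0.01 and -0.02. All genes under 10 kb had medians of 0.50, 0.45 and 0.64, and all longer genes -0.11, -0.04 and -0.08. The longer Atp5o locus was the only member of 10 kb or more called with the diet in each of the 3 classes. Long genes give nuclear libraries many reads from introns, and short ones few, but the files do not state whether introns were counted. The parts of free RNA and of gene length in the diet difference were not tested separately.

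Of the genes around the chain, Cox4i1, the complex IV subunit outside the naming rule, rose with the diet in all 3 classes, by 1.47, 1.19 and 1.94, from 10.6 and 15.7 to 34.8 and 41.5 CPM in adipocyte-like nuclei. Of the regulators, 1 of 16 was higher and 3 lower in adipocyte-like nuclei, and 0 and 2 of 15 in macrophage-like nuclei. The 1 was Esrrg, at 45.1 and 48.2 CPM in mCherry SD and 244 and 189 CPM in mCherry HFD (log2 difference 2.23, SE 0.19, adjusted p = 0.000222), and it remained past the threshold under each alternative. Its level in Tert HFD, at 164 and 163 CPM, and in TertCi HFD, at 172 and 156 CPM, was not called different from mCherry HFD. Ppargc1a, Ppargc1b and Esrra were not called, with differences of -0.07, -0.48 and -0.31. Assembly factors were higher in 5 and lower in 1 of 45 cases (11.1% and 2.22%, beside 12.8% and 8.14% of all genes). The lower one was Taco1, a translational activator of the mitochondrial gene for Cox1, at 1969 and 1077 CPM against 81.2 and 198 CPM. Taco1 was higher again in Tert HFD (499 and 4244 CPM) and TertCi HFD (2260 and 3667 CPM). Citric acid cycle genes were lower in 1 of 17 and fatty acid oxidation genes higher in 3 of 15 cases.

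The last comparisons set the Tert HFD and TertCi HFD mice against mCherry HFD, and they share those 2 control libraries with each other and with the diet comparison. In adipocyte-like nuclei 3 of 76 members were lower in Tert HFD and none higher, where 2.34% of all genes were lower and 0.98% higher. In progenitor-like nuclei 7 of 69 were lower (7.54% of all genes, with 2.87% higher). Macrophage-like nuclei had 13 of 77 lower (10.2% of all genes, with 8.07% higher), and no member was higher in either class. In TertCi HFD the lower members numbered 7, 17 and 20 (9.14%, 12.4% and 13.1% of all genes), again with none higher (5.94%, 6.16% and 10.9% of all genes). The medians were -0.49, -0.62 and -0.74 in Tert HFD and -0.52, -0.71 and -0.67 in TertCi HFD, beside all-gene medians from -0.05 to -0.00. Without mCherry HFD mouse rep128 the calls were 0, 1 and 3 in Tert HFD and 1, 1 and 2 in TertCi HFD, and the adipocyte-like medians turned to 0.15 and 0.23. Without mouse rep129 they were 0, 2 and 2, and 2, 5 and 4, with adipocyte-like medians of -0.55 and -0.60. Leaving out a transgenic mouse also moved the counts, to 5 without mouse rep134 and 0 without mouse rep136 in adipocyte-like nuclei of Tert HFD, and to 2 without mouse rep138 and 2 without mouse rep140 in those of TertCi HFD. In progenitor-like nuclei, 3 and 4 were called in Tert HFD without rep134 or rep136, 4 and 3 without rep138 or rep140, and 6 and 4 in TertCi HFD without rep138 or rep140. In macrophage-like nuclei the count was 7 in Tert HFD without mouse rep136, and 2 and 5 in TertCi HFD without rep138 or rep140. Scaling by total UMIs alone gave 3, 11 and 21 lower members in Tert HFD and 13, 21 and 28 in TertCi HFD, with all-gene medians of -0.26, -0.18 and -0.18, and of -0.45, -0.27 and -0.25. With free RNA subtracted, 0, 1 and 4 members were lower in Tert HFD and 1, 3 and 6 in TertCi HFD. For the alternatives in this paragraph the shares of all genes called are not given, so their counts cannot be set against all genes.

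Cox7c was lower in all 6 of these comparisons. In adipocyte-like nuclei it stood at 17.4 and 16.9 CPM in Tert HFD and 18.6 and 14.5 CPM in TertCi HFD, beside 48.4 and 39.6 CPM in mCherry HFD, with log2 differences of -1.39 (adjusted p = 0.0319) and -1.43 (adjusted p = 0.00866). Progenitor-like nuclei showed differences of -1.85 and -1.47, and macrophage-like nuclei -1.63 and -1.66. Ndufb9 fell in Tert HFD in all 3 classes, with log2 differences of -2.48, -1.88 and -2.04. It stood at 4.2 and 1.9 CPM in adipocyte-like nuclei of Tert HFD and at 9.0 and 8.3 CPM in those of TertCi HFD. There its difference of -1.13 was not called (adjusted p = 0.11). In progenitor-like nuclei of TertCi HFD it was called lower too (-1.34, adjusted p = 0.0264). In TertCi HFD, Ndufb11, a membrane-arm subunit of complex I, stood at 1.5 and 1.3 CPM in adipocyte-like nuclei against 6.0 and 5.7 in mCherry HFD (-2.07, adjusted p = 0.0368). Ndufb11 had 88 UMIs in all adipocyte-like nuclei, and its value in mouse rep129 rested on as few UMIs as that of Ndufa13 above. In the same comparison Cox6c, a small subunit of complex IV, stood at 7.2 and 6.5 against 19.4 and 22.6 CPM (-1.57, adjusted p = 0.0287). The transgenic libraries lay below both mCherry HFD libraries for each of these genes. With free RNA subtracted, Cox7c passed only in macrophage-like nuclei (-1.51 and -1.58), and Ndufb9 in Tert HFD only there (-1.79). In adipocyte-like nuclei Cox6c did not pass and Ndufb11 could not be tested.

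In progenitor-like nuclei Cox5b was at 7.5 and 5.9 CPM in mCherry HFD, 1.3 and 1.8 in Tert HFD and 0.4 and 1.2 in TertCi HFD, with log2 differences of -2.26 and -3.39 (adjusted p = 0.0341 and 0.00602). Ndufa11, whose promoter window is printed above, was at 8.2 and 7.6 CPM, then 1.7 and 1.8, and then 1.0 and 0.0 CPM (-2.19 and -3.36, adjusted p = 0.0405 and 0.0062). Cox6a1, from the same set of windows, fell by 1.10 in TertCi HFD, and Ndufa8, Atp5g2 and Atp5l were called in no comparison between groups. In macrophage-like nuclei Ndufs8, a core iron-sulphur subunit, was at 7.8 and 5.4 CPM in mCherry HFD and 0.8 and 2.4 CPM in Tert HFD (-2.53, adjusted p = 0.0134). Atp5g1, a c subunit, was at 8.8 and 7.7 CPM against 2.0 and 1.6 CPM in Tert HFD and 1.3 and 3.2 CPM in TertCi HFD (-2.13 and -2.26). Atp5d was at 8.2 and 9.4 CPM against 1.3 and 2.1 CPM in TertCi HFD (-2.57, adjusted p = 0.00578). The values of Cox5b, Ndufa11, Ndufs8, Atp5g1 and Atp5d in Tert HFD mouse rep136 and TertCi HFD mouse rep140 rested on 0 to 3 UMIs each. With free RNA subtracted, Ndufa11 in TertCi HFD progenitor-like nuclei (-3.51, adjusted p = 0.0315), Ndufs8 in Tert HFD (-2.47, adjusted p = 0.0384) and Atp5d in TertCi HFD (-2.28, adjusted p = 0.0496) still passed. Cox6a1, Atp5g1 and Ndufa11 in Tert HFD did not, and Cox5b could not be tested in progenitor-like nuclei.

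Ribosomal protein genes fell alongside, with 23 of 79, 61 of 72 and 63 of 79 lower in Tert HFD and 61, 66 and 65 lower in TertCi HFD, and medians of -1.50, -1.74 and -1.51, and of -1.80, -2.05 and -1.63. Members under 10 kb had adipocyte-like medians of -0.70 and -0.90 in the 2 comparisons and members of 10 kb or more 0.13 and 0.23. The part of free RNA and gene length in these differences was not tested.

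Set directly against each other, Tert HFD and TertCi HFD gave no call with edgeR, among the members or among all genes (0.0%), in any class. Counted without adjustment, 2 of 76, 1 of 69 and 0 of 77 members had a p under 0.05 in this test. Of all genes, 942 of 14996, 547 of 12132 and 478 of 13293 did. DESeq2 called no member either, and 3, 0 and 0 genes. The member medians were -0.02, 0.06 and 0.03. This does not show that the genotypes acted alike.

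The diet difference was compared between adipocyte-like and macrophage-like nuclei in a joint fit, in which 1 of 77 members was called higher and 1 lower, beside 2.58% and 2.67% of all genes. The longer Atp5o locus differed more in adipocyte-like nuclei, by 0.99 on the log2 scale, and Sdhb less, with a difference between the classes of -1.43. Sdhb stood at 29.1 and 29.0 CPM in mCherry SD and 23.4 and 28.3 CPM in mCherry HFD in adipocyte-like nuclei, and at 13.3 and 21 against 38.5 and 33.7 CPM in macrophage-like nuclei. The macrophage-like values in mCherry SD rested on 4 and 14 UMIs, and neither diet difference passed on its own (adjusted p = 0.529 and 0.0552). Different clusters held most of each class in the groups compared. Adipocyte-like nuclei came mainly from clusters 10 and 3 in mCherry SD, 3 in mCherry HFD and 12 in TertCi HFD mouse rep138, and cluster 13 held 509 of its 559 nuclei from mouse rep136. Macrophage-like nuclei came from cluster 14 in mCherry SD, from 16, 20 and 21 in mCherry HFD, and mainly from 14 and 17 in the transgenic groups. Progenitor-like nuclei came mainly from clusters 6 and 7 in mCherry HFD, while cluster 5 held the largest number in each of the other 6 libraries.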

How the data were processed

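Single-nucleus RNA was measured in 8 libraries of frozen visceral white adipose tissue, 1 per mouse, with sorted DAPI-stained nuclei. The authors deposited unfiltered matrices of UMI counts per gene and barcode, not normalized. The file headers name Cell Ranger 7.1.0, and the submitters' processing notes name Cell Ranger 5.0.1, bcl2fastq 2.20.0 and mm39; whether introns were counted is not given in the sources used here. Per the labels' protocols, samples were handled 2 at a time in random order, and the pairs are not recorded, which leaves batch out of the fits.

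From these counts, barcodes were kept as nuclei at or above 500 UMIs and 0.1 of the 99th percentile of the top 5000 barcodes, if they had 300 genes or more and a mitochondrial share up to 5%. Scrublet scores removed the top 0.8% per 1000 nuclei. Nuclei were clustered in scanpy 1.11.5 (2000 variable genes, 30 components, 15 neighbours, Leiden resolution 1) without members and mitochondrial genes. A cluster was named when at least 3 markers were raised 2-fold, and counted as mixed above a second-lineage ratio of 0.6, a value chosen after the cluster scores were seen. Counts were summed per library and class with at least 20 nuclei, which left out the endothelial-like class of mCherry SD mouse rep144 (16 nuclei). They were tested with edgeR 4.0.16 (quasi-likelihood, TMM, filterByExpr, Benjamini-Hochberg over all genes) in R 4.3.3, after a test on simulated data. For the diet comparison, that test recovered 14%, 18% and 9% of 2-fold changes in adipocyte-like, progenitor-like and macrophage-like nuclei. Of 4-fold changes it recovered 67%, 74% and 55%, with 6, 6 and 3 false calls. A member that was not called may therefore still differ. The library was a block between classes, and all 4 groups entered 1 fit within a class, so they share 1 estimate of the spread. There were 16 comparisons. CPM values of the class comparison and of the group comparisons are scaled in their own fits and are not on the same scale, and isoform and marker values are unscaled.

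Alternatives were DESeq2 1.42.0, other scalings, filters, nucleus sets and class definitions, and each mouse left out. Depth limits the precision, with intervals and floors covering counting error only. Named were up to 6 called members of largest difference in each direction per class comparison and up to 5 per group comparison, the isoform pairs, the Sdh genes and 4 regulators, and up to 3 called genes per list. Further members in the text were chosen after their values were seen. Members and lists were chosen with earlier results of these data known. Ribosomal S6 kinase genes, caught by the symbol pattern, were left out of the ribosomal list after values were seen, leaving 90 genes. Gene spans come from GENCODE M21 (GRCm38), another build than the authors' mm39, and are used for length only. The NRF1 and YY1 motifs were each shortened by 1 letter after a first promoter search had been seen, which widens the match in members and in all genes alike.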

Additional observations from a re-analysis of the deposited data

Results flagged for a closer look

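The diet difference differed between adipocyte-like and macrophage-like nuclei for 2 members by the test of the difference itself (edgeR, library as a block). They were 1 higher and 1 lower of 77 tested, beside 2.58% and 2.67% of all genes, so members were not called more often than all genes. For the longer Atp5o locus the adipocyte-like minus macrophage-like difference was 0.99 on the log2 scale (SE 0.26, adjusted p = 0.0138), with diet differences of 3.56 and 2.29 in the separate fits. For Sdhb it was -1.43 (SE 0.42, adjusted p = 0.0345), with diet differences of -0.22 and 0.98. The median of this difference over all genes was -0.26 and over the members -0.55. The Sdhb call was lost under 10 alternatives, over a range of -1.94 to -1.07, and that of the longer Atp5o locus under 6, over a range of 0.24 to 1.42.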

How the results depend on the processing

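No paired analysis was possible because the groups share no replicate numbers. Of the alternatives, leaving out the adipocyte-like cluster with raised macrophage markers was chosen after seeing the data. Over the 234 gene results and 21 settings, 4780 of 4914 values could be obtained. Of these, 4049 kept direction and side of the threshold, 726 lost the call and 5 changed sign. For the rest the gene was not tested under that setting, mostly in thinned nuclei. The sign changes were mt-Cytb with free RNA subtracted (6.94 for TertCi in adipocyte-like nuclei, -6.23 for diet in adipocyte-like nuclei), Gatm against progenitor-like nuclei (-0.42 with mixed clusters named, -0.78 without the cluster) and Ucp2 against progenitor-like nuclei (-0.017 with mixed clusters named). The counts below are members called in either direction, and the cause of each change was not tested, save that thinning and leaving out mice also reduce the counts or samples tested. Most stand without the share of all genes called under the same setting, so a changed count cannot be set against all genes.

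Adipocyte-like against progenitor-like, macrophage-like and endothelial-like nuclei gave 17, 13 and 11 members with no filter on low counts and 13, 9 and 3 in nuclei thinned to 1000 UMIs. With mixed clusters named, the progenitor-like comparison gave 16, and the other 2 gave 18 each but with another balance, 11 higher and 7 lower against macrophage-like and 6 higher and 12 lower against endothelial-like nuclei. Leaving out 1 mouse gave 19 to 33, 11 to 27 and 10 to 20.

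In adipocyte-like nuclei, diet gave 7 with the DESeq2 test, 2 thinned and 3 with free RNA subtracted. Tert gave 5 with no filter, 0 with free RNA subtracted and 0 without the cluster. TertCi gave 13 with total UMIs only, 12 with no filter, 4 with the DESeq2 test, 3 thinned, 1 with free RNA subtracted and 4 without the cluster. With mixed clusters named it gave 1 higher and 10 lower, beside 6.99% and 10.3% of all genes. Leaving out 1 mouse gave 1 to 15, 0 to 5 and 1 to 8.

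In progenitor-like nuclei, diet gave 5 with total UMIs only, 4 with no filter, 1 with free RNA subtracted, 12 with mixed clusters named, 4 with doublets kept and 5 at Leiden resolution 2.0. Tert gave 11 with total UMIs only, 2 with the DESeq2 test, 4 in nuclei of at least 2000 UMIs, 2 thinned and 1 with free RNA subtracted. With mixed clusters named it gave 16, all lower, beside 10.7% of all genes lower. TertCi gave 3 with the DESeq2 test, 1 thinned and 3 with free RNA subtracted. Leaving out 1 mouse gave 1 to 5, 1 to 9 and 1 to 20.

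In macrophage-like nuclei, diet gave 6 with the DESeq2 test, 3 thinned and 5 with free RNA subtracted. Tert gave 21 with total UMIs only, 5 with the DESeq2 test, 8 thinned and 4 with free RNA subtracted. TertCi gave 9 with the DESeq2 test, 5 thinned and 6 with free RNA subtracted. Leaving out 1 mouse gave 1 to 18, 2 to 13 and 2 to 28. Tert against TertCi gave 0 to 0 in each class. The difference of the diet contrasts gave 1 with DESeq2 size factors, total UMIs only, no filter, the DESeq2 test, member genes in the clustering, Leiden resolution 2.0 and without the cluster, 0 thinned and with free RNA subtracted, and 0 to 2 with 1 mouse left out. A group that lost a mouse had 1 library, assumed to vary like the others.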
